A study of Rattus norvegicus with 9 samples.

Results

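The 10 genes described here are protein-coding genes of the rat mitochondrial genome that encode subunits of the respiratory chain. They were chosen by their Ensembl identifiers, and their symbols come with that choice, since the gene table pairs identifiers with no names. All 10 identifiers were among the 32883 genes of the table. Each gene had a single length behind its deposited values, from 519 bases for mt-Nd6 to 1830 bases for mt-Nd5, and the order of the 10 lengths is the order these genes have in mammals. RNA came from rat cells that line the renal artery, an endothelium grown in culture and used between the second and the eighth passage in serum-containing medium. There were 3 groups of 3 libraries. The Normal group is labelled with no agent. The series title ties the Model group to angiotensin II, a pressor peptide. The third group, called treated here, is labelled with calycosin, an isoflavone, and tanshinone IIA, a quinone of the danshen root. The labels give no dose or time, and they name no cell line beyond the cell type. They leave unsaid whether the Model condition was applied to the treated cells too and whether the libraries within a group are separate cultures. The p-values below therefore measure only the spread between these libraries and that spread may be technical. The title sets the question of what the compound pair does to cells made dysfunctional by angiotensin II.

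The respiratory chain of the inner mitochondrial membrane passes electrons from complex I to complex IV and drives ATP synthesis at complex V. Most of its subunits are encoded in the nucleus, and a small core is encoded in the mitochondrial DNA, which is transcribed from both strands into long RNAs that are cut into single messages. In endothelial cells, which draw much of their ATP from glycolysis, mitochondria are also known as a source of reactive oxygen species, and angiotensin II is known to raise oxidant production in vessels. Of the members, mt-Nd1, mt-Nd2, mt-Nd4, mt-Nd5 and mt-Nd6 encode core membrane subunits of complex I, the NADH dehydrogenase. Cytochrome b of complex III is encoded by mt-Cyb, the core subunits of complex IV, cytochrome c oxidase, by mt-Co1, mt-Co2 and mt-Co3, and the proton-channel subunit a of complex V by mt-Atp6. Only mt-Nd6 is read from the opposite strand to the other members, where it lies antisense to the RNA that carries mt-Nd5 and mt-Cyb. How the counting treated strand is not given in the sources used here. If strand was not used, reads of mt-Nd6 and of that RNA cannot be told apart. Nuclear copies of mitochondrial DNA can share reads with all 10 genes.

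Library totals in the gene table ran from 7.98 to 18.3 in units of 1e6 counts. Treated 2 and treated 3 were the shallowest, at 7.98 and 8.15 in these units. All 10 members passed the filter on low counts, and the lowest count of any member in any library was 1606, of mt-Atp6 in treated 2. The cell type could not be checked against endothelial markers, because identifiers and symbols could not be joined.

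Together the members held about 2 in every 100 counts. Their summed share of the library total was 1.91%, 1.84% and 1.94% for Normal 1 to 3. For Model 1 to 3 it was 1.67%, 2.05% and 1.74%, and for treated 1 to 3 it was 1.77%, 1.63% and 1.98%. The means were 1.90% ± 0.0534, 1.82% ± 0.202 and 1.79% ± 0.178 (SD, n = 3). The 3 Normal libraries lay close together, while Model and treated libraries spread on both sides of them. Counting error was far smaller than this spread: the half-width of the 95% Wilson interval was at most 0.00957 percentage points, which covers counting error only. The log2 ratio of the mean shares was -0.059 for Model against Normal, -0.023 for treated against Model and -0.082 for treated against Normal. Leaving out Model 2 turned the ratio of treated to Model to 0.071 and leaving out treated 2 turned it to 0.041, while leaving out treated 3 took it to -0.10. Shares of summed FPKM gave 0.0046 for this ratio, so its direction also turned with the unit. For Model against Normal the ratio was -0.15 without Model 2. In RNA of whole cultures, fewer cells rich in these messages and fewer messages per cell cannot be told apart. As a score over the members, the share was described and not tested.

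**Figure D1:**
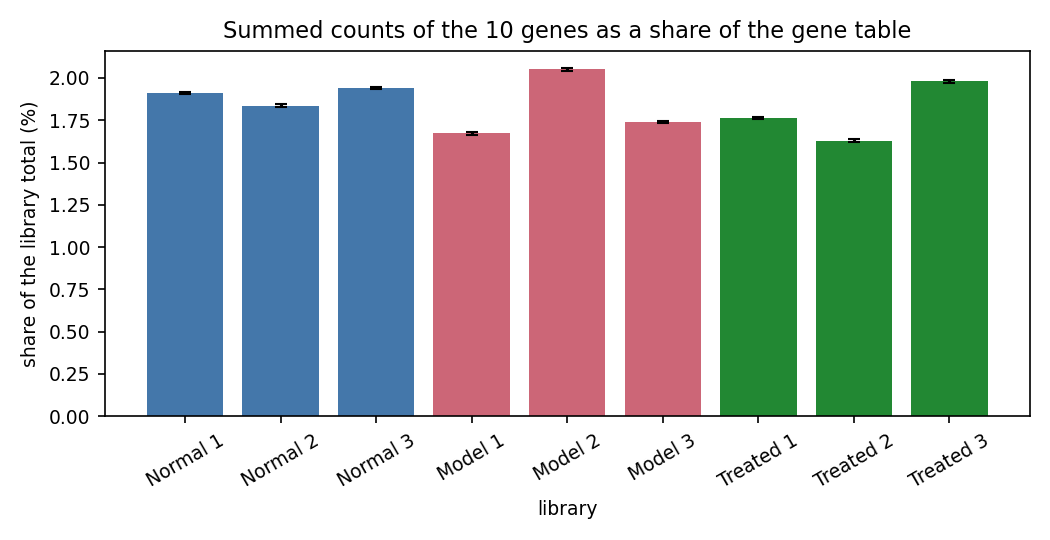
Summed counts of the 10 mitochondrially encoded genes as a percent of all counts in the gene table, for each library (bars, coloured by group), with 95% Wilson intervals as thin black error bars. Normal libraries sit between 1.84% and 1.94%, inside the range of the Model libraries (1.67% to 2.05%) and of the treated libraries (1.63% to 1.98%).

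Levels of different genes were compared per length, as the deposited FPKM (fragments per kilobase and per 1e6 fragments). The catalytic subunit of complex IV stood far above the rest: mt-Co1 was at 6997 ± 645 FPKM over the 9 libraries (SD), 4.70 ± 0.373 times the next gene, mt-Cyb, at 1489 ± 103. Among all genes of the table mt-Co1 ranked 3 or 4 by FPKM in each library. Then came the other complex IV genes, mt-Co2 at 1410.2 ± 161 FPKM and mt-Co3 at 1271 ± 104. The complex I genes followed, from mt-Nd1 at 1009 ± 80.2 through mt-Nd2 at 643 ± 82.1, mt-Nd4 at 587 ± 89.8 and mt-Nd5 at 547 ± 60.9 to mt-Nd6 at 429.9 ± 62.0 FPKM. The complex V gene mt-Atp6 was last at 330.0 ± 39.4 FPKM.

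Some neighbours in this order kept their places in each library and some did not. The place of mt-Co1 above mt-Cyb, of mt-Co3 above mt-Nd1, of mt-Nd1 above mt-Nd2, of mt-Nd2 above mt-Nd4 and of mt-Nd5 above mt-Nd6 held in 9 of 9 libraries. The order of mt-Cyb and mt-Co2 held in 7 of 9, with a ratio of 1.06 ± 0.0641, and so did that of mt-Nd4 and mt-Nd5, with a ratio of 1.07 ± 0.0903. Over the 9 libraries together those neighbours did not differ beyond their spread. Both orders held in each Normal and Model library, and each exception was a treated library. The exceptions were treated 2 and treated 3 for mt-Cyb and mt-Co2, and treated 1 and treated 2 for mt-Nd4 and mt-Nd5. The order of mt-Co2 and mt-Co3 and that of mt-Nd6 and mt-Atp6 held in 8 of 9 libraries. Only 2 steps left a gap that no library crossed, the one below mt-Co1 and the one between mt-Nd1 and mt-Nd2.

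**Figure D2:**
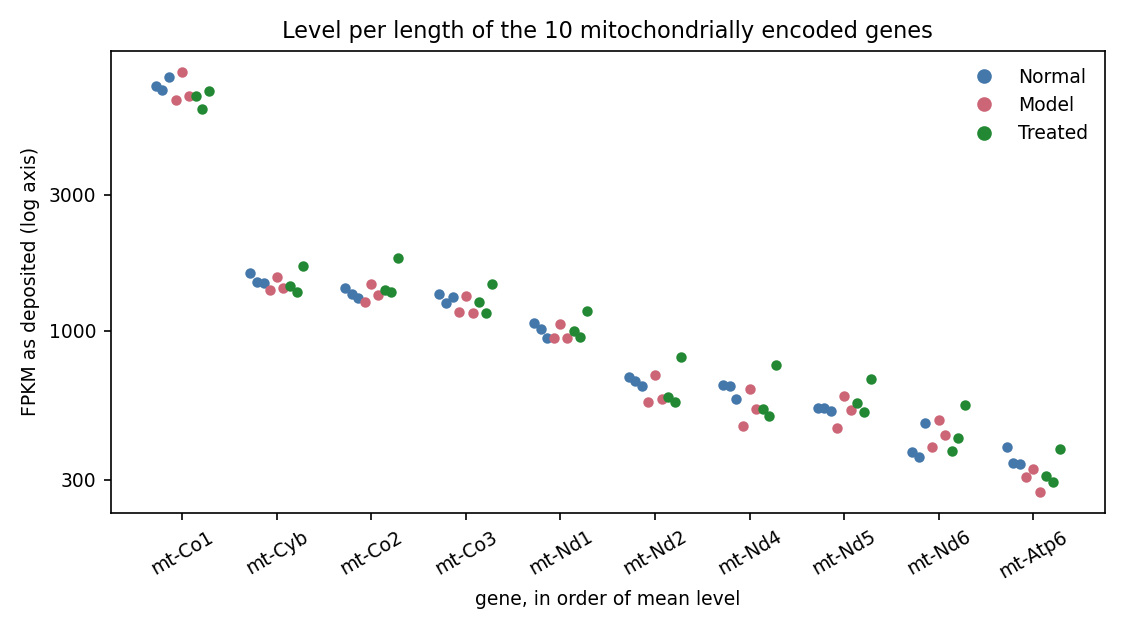
Deposited FPKM of each member in each library on a log axis, with genes ordered by mean level and points coloured by group. The value of mt-Co1 is 6034 to 8123 FPKM, while the other 9 genes lie between 272 and 1808 FPKM.

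Within a group the members tended to be high or low in the same library. Model 2 had the highest level of all 10 members among the Model libraries, and treated 3 that of all 10 among the treated libraries. Model 1 was the lowest Model library for 8 members, with mt-Atp6 and mt-Co3 as the exceptions, and treated 2 the lowest treated library for 9, with mt-Nd6 as the exception. Normal 1 was the highest Normal library for 8 members, though mt-Co1 and mt-Nd6 were highest in Normal 3. In units of 1e6 counts Model 2 had 15.9 and treated 3 had 8.15, so the 2 high libraries were not alike in depth. The level of a member in its highest library was a median of 1.10 times that in its lowest among Normal libraries, 1.22 times among Model libraries and 1.31 times among treated libraries. The fold between group means, taken upward, had a median over the members of 1.06 for Model against Normal, 1.07 for treated against Model and 1.07 for treated against Normal. The median fold between groups was thus below the median fold between the libraries of any 1 group. The 2 folds are unlike: 1 is between means of 3 libraries, the other between the extremes of 3 single libraries. Extremes tend to lie further apart than means, even where groups differ. This order therefore does not weigh group change against replicate spread.

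**Figure D3:**
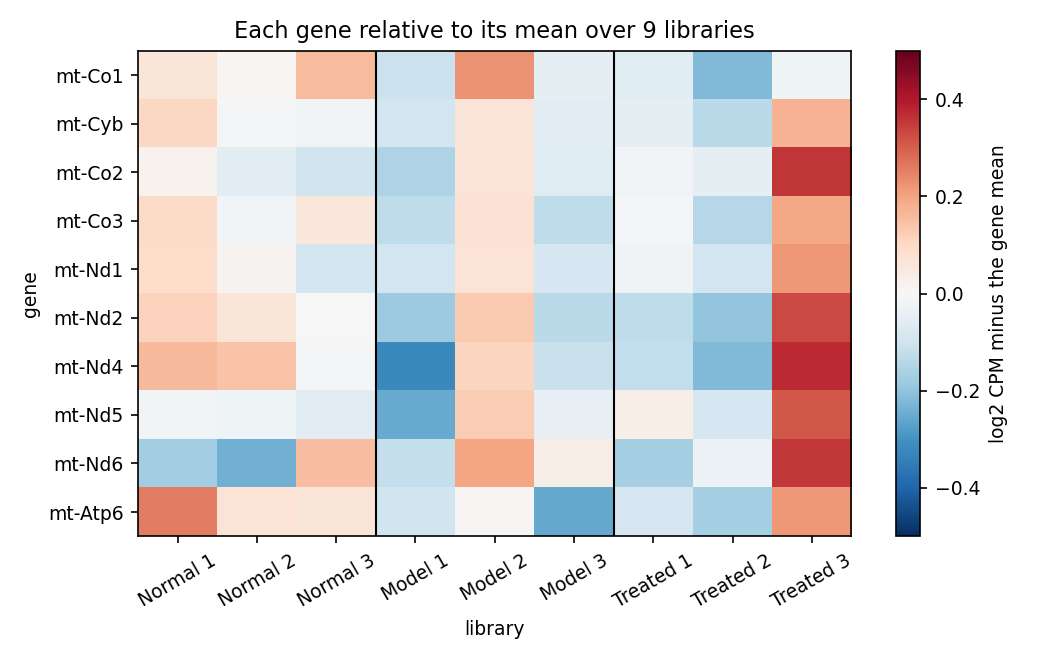
Log2 CPM of each member minus its mean over the 9 libraries, with genes in rows and libraries in columns, and vertical lines between the groups. The columns of Model 2 and treated 3 hold the highest value of their group for all 10 genes, and the largest contrast among treated libraries is that of mt-Nd4, 1.51-fold between treated 3 and treated 2.

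Model was first set against Normal, the comparison that bears on the Model condition. None of the 10 genes passed the threshold, a Benjamini-Hochberg adjusted p below 0.05 over all 12943 genes tested with edgeR. Of all genes tested 0% passed in this comparison. At an unadjusted p below 0.05 there was 1 member, mt-Atp6, against 550 of all genes, and DESeq2 called 0 members, with 1 at an unadjusted p below 0.05. The edgeR adjusted p of each of the 10 was 0.999 or higher. The levels below are CPM, counts per 1e6 counts of the TMM-scaled library.

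For the complex V gene mt-Atp6 (ENSRNOG00000031979), the Normal libraries were at 267, 234 and 233 CPM, the Model libraries at 208, 224 and 187 CPM and the treated libraries at 210.4, 199 and 259 CPM. Each Model library lay below each Normal library, while the treated libraries overlapped both. It was the sole member whose groups did not overlap between Model and Normal, which 9.12% of all tested genes had. Its log2 fold change was -0.25 ± 0.10 (SE), with an edgeR adjusted p of 0.999 and an unadjusted p of 0.0265. Without Normal 1 its log2 fold change was -0.18 with an unadjusted edgeR p of 0.123, and without Model 3 it was -0.18 with 0.120, so that no member was then below 0.05. The mean was 245 ± 19.3 CPM in Normal and 206 ± 18.7 CPM in Model (SD, n = 3).

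For mt-Co1 (ENSRNOG00000034234), which carries the site where oxygen is reduced, the Normal libraries were at 11235, 10833.5 and 12031 CPM and the Model libraries at 9994, 12592 and 10429 CPM. Model 2 was the highest of these 6 libraries and the other 2 Model libraries were the lowest. The log2 fold change was -0.047 ± 0.082, which is a fold of 0.968 with a 95% interval of 0.856 to 1.10. For mt-Co2 (ENSRNOG00000030371), which takes up electrons from cytochrome c, the Normal libraries were at 971, 922 and 895 CPM and the Model libraries at 861, 1004 and 920.2 CPM, with a fold of 0.999 and an interval of 0.864 to 1.15. For mt-Co3 (ENSRNOG00000030700), a structural core subunit, they were at 1061, 985 and 1032 CPM and at 911, 1045 and 909.5 CPM, with a fold of 0.931 and an interval of 0.826 to 1.05. All 3 genes of complex IV overlapped between the groups, and Model 2 lay above at least 2 of the Normal libraries for each of them.

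The mean of mt-Nd4 (ENSRNOG00000029707) showed the lowest Model value of the complex I genes relative to Normal. Its Normal libraries were at 896, 883 and 796 CPM and its Model libraries at 640.5, 861 and 741 CPM. Again Model 2 reached the Normal range while the other 2 Model libraries did not. The log2 fold change was -0.20 ± 0.16 (edgeR adjusted p = 0.999), with an interval of the fold from 0.670 to 1.13, the least precise of the 10 in this comparison. For mt-Nd2 (ENSRNOG00000031033) the Normal libraries were at 718, 693 and 665 CPM and the Model libraries at 585, 727 and 605 CPM, the same pattern at a log2 fold change of -0.11 ± 0.13.

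For mt-Nd1 (ENSRNOG00000030644) the Normal libraries were at 1023, 969.8 and 902 CPM and the Model libraries at 899, 1009 and 906 CPM, a log2 fold change of -0.041 ± 0.080. For mt-Nd5 (ENSRNOG00000029971) they were at 987, 982 and 959 CPM and at 837, 1087 and 969 CPM, a log2 fold change of -0.017 ± 0.10. The Normal libraries of mt-Nd5 lay within 1.03-fold of each other, the tightest of any member and group. For mt-Nd6 (ENSRNOG00000029042), the gene on the other strand, the Normal libraries were at 196, 187 and 246 CPM and the Model libraries at 203, 254 and 226 CPM. It was the one member with a log2 fold change above 0 here, at 0.12 ± 0.15, and Normal 3 lay among the Model libraries. For mt-Cyb (ENSRNOG00000031766), the complex III gene, the Normal libraries were at 1827, 1694 and 1685 CPM and the Model libraries at 1594, 1775 and 1634 CPM. Its groups overlapped too, and its fold of 0.961 had the narrowest interval of the 10, 0.862 to 1.07.

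So 9 of the 10 log2 fold changes of Model against Normal were below 0, with a median of -0.052, where 50.9% of all tested genes were below 0 and their median was -0.0024. The same libraries enter each gene and the genes vary together, so these are not 10 independent signs. Without Model 1 the number below 0 was 6. Without Model 2 the number of members at an unadjusted edgeR p below 0.05 was 3 (mt-Atp6, mt-Co1 and mt-Co3), and without Model 2 and treated 3 together it was 5, with mt-Nd2 and mt-Nd4 added. None of these passed the adjusted threshold. Model 2 was the highest Model library for all 10 members, so leaving it out lowers each of their Model means. How many of all genes were at this unadjusted p in those fits was not counted, so no excess is read from the 3 or the 5.

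Treated against Model takes from the series title, not from the labels, that the treated cells shared the Model condition. No member passed the threshold, with edgeR adjusted p between 0.530 and 0.965, no member at an unadjusted p below 0.05, and 0 called by DESeq2. Among all genes 119 of 12943, or 0.919%, passed in edgeR, and 1632 were at an unadjusted edgeR p below 0.05. No member had groups that did not overlap, which 18.8% of all tested genes had. Of the 10 log2 fold changes, 9 were above 0, with a median of 0.077, where 49.8% of all tested genes were above 0. That count rested on treated 3: without it 2 of the 10 were above 0.

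The highest was that of mt-Co2, whose treated libraries were at 950.4, 928 and 1228 CPM. Treated 3 stood above all other 8 libraries, and treated 1 and 2 lay among the Model and Normal libraries. The log2 fold change was 0.16 ± 0.10 (edgeR adjusted p = 0.530) and became 0.019 without treated 3. The complex I gene mt-Nd5 had treated values of 1016, 941 and 1234 CPM and a log2 fold change of 0.14 ± 0.10, and mt-Nd4 had 734, 687 and 1036 CPM and 0.13 ± 0.16. Both were highest in treated 3 of all 9 libraries, and the level of mt-Nd4 in treated 1 and 2 was below each Normal library.

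The one member below 0 was mt-Co1, at 10336, 9236 and 10622 CPM in the treated libraries and a log2 fold change of -0.13 ± 0.082 (edgeR adjusted p = 0.545). Here treated 3 was not set apart, and Model 2 supplied the highest value. Without Model 2 the log2 fold change was -0.022. The remaining members had treated values of 949, 898 and 1117 CPM for mt-Nd1, of 607, 579 and 835 CPM for mt-Nd2, of 991, 899 and 1135 CPM for mt-Co3, of 197, 217 and 282 CPM for mt-Nd6 and of 1647, 1549 and 1916 CPM for mt-Cyb. In each of these 5 genes treated 3 was the highest of the 9 libraries, and their log2 fold changes were between 0.024 and 0.078. The log2 fold change of mt-Atp6 was 0.11 ± 0.10 and became -0.0076 without treated 3, and its level in treated 3 was below that in Normal 1.

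Treated against Normal, which asks how far treated cells lay from Normal ones, again called 0 of the 10, with edgeR adjusted p between 0.278 and 0.912, no member at an unadjusted p below 0.05 and 0 in DESeq2. Among all genes 346 of 12943, or 2.67%, passed in edgeR, and 2399 were at an unadjusted edgeR p below 0.05. The lowest adjusted p was that of mt-Co1. Each treated library was below each Normal library, with means of 10065 ± 732 and 11367 ± 610 CPM (SD, n = 3), and no other member had groups apart in this comparison, which 24.4% of all tested genes had. Its log2 fold change was -0.18 ± 0.082, a fold of 0.885 with a 95% interval of 0.783 to 1.00 (edgeR adjusted p = 0.278, unadjusted p = 0.0532). Over the 9 fits that each left out 1 library its log2 fold change stayed below 0, from -0.21 without treated 3 to -0.12 without treated 2, with adjusted p from 0.105 to 0.576. Without treated 3 the number of members at an unadjusted edgeR p below 0.05 went from 0 to 4: mt-Atp6, mt-Nd2, mt-Nd4 and mt-Co1, all lower in treated libraries. Their log2 fold changes were then between -0.27 and -0.21, with edgeR adjusted p between 0.231 and 0.373. Treated 3 was the highest treated library for all 10 members, so leaving it out lowers each of their treated means. How many of all genes were at this unadjusted p in that fit was not counted, so no excess is read from the 4.

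On the other side were mt-Co2, at 0.16 ± 0.10, mt-Nd6, at 0.14 ± 0.15, mt-Nd5, at 0.12 ± 0.10, and mt-Nd1, at 0.034 ± 0.080, so 4 of the 10 log2 fold changes were above 0, where 50.1% of all tested genes were. The number was 8 without treated 2 and 2 without treated 3. On the log2 scale the widest interval was that of mt-Nd4, whose fold of 0.954 ran from 0.734 to 1.24, and the narrowest that of mt-Cyb, whose fold of 0.982 ran from 0.881 to 1.10. The comparisons share libraries, so their values are not independent of each other. A miss of the threshold does not show that the groups were alike, and the intervals give the range of fold changes compatible with these libraries.

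**Figure D4:**
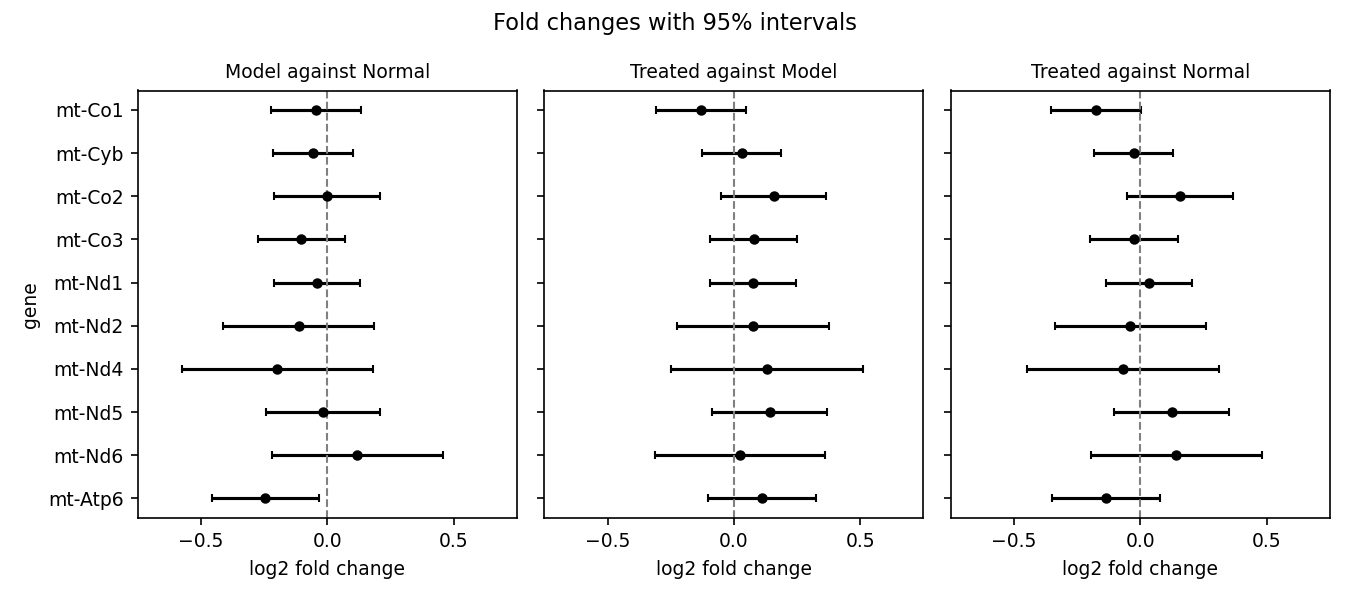
Log2 fold change of each member (points) with its 95% interval from the edgeR fit (bars) in the 3 comparisons, with a dashed line at no change. The intervals include 0 for each gene and comparison except mt-Atp6 in Model against Normal, where the point is at -0.25, and that difference did not pass the adjusted threshold.

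Dividing each count by the summed counts of the 10 members removes the level they share and leaves the make-up of these 10 messages. Other mitochondrially encoded genes, such as mt-Nd3, mt-Nd4l and mt-Atp8, are not members and do not enter this sum. In Normal libraries mt-Co1 took 58.6%, 58.9% and 61.9% of these counts, in Model libraries 59.7%, 61.2% and 59.5%, and in treated libraries 58.6%, 57.3% and 54.0%. Each treated library was below each Model library, while treated 1 lay between Normal 1 and Normal 2. The difference of the means was -3.52 percentage points against Model and -3.17 against Normal. The share of mt-Co2 was 5.06%, 5.01% and 4.60% in Normal, 5.15%, 4.88% and 5.25% in Model and 5.39%, 5.75% and 6.25% in treated libraries, so that each treated library was above the other 6. The share of mt-Nd5 did the same, at 5.15%, 5.34% and 4.93% in Normal, 5.00%, 5.28% and 5.53% in Model and 5.76%, 5.83% and 6.27% in treated libraries. The shares of mt-Nd1, at 5.38% to 5.68% in treated libraries, and of mt-Co3, at 5.57% to 5.77%, also lay above those of the other 6 libraries. Treated 3 had the lowest share of mt-Co1 and the highest shares of these 4 genes.

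With 3 libraries against 3 a two-sided exact permutation test cannot give a p below 0.1, and it gave 0.1 for mt-Co1 against Model and for mt-Co2, mt-Co3, mt-Nd1 and mt-Nd5 against both groups. Over the 30 such tests, 10 genes in 3 comparisons, the lowest Benjamini-Hochberg adjusted exact p was 0.333. At this number of libraries none of these tests could pass 0.05, so the shares are a description. In this measure the groups did not overlap for 0 of the 10 members between Model and Normal, for 5 between treated and Model and for 4 between treated and Normal. Of all tested genes, set over the same summed counts, 6.3%, 11.6% and 22% did not overlap. Division by this sum removes the shared level from the members but brings its variation into the other genes. Between treated and Model, 1364 of the genes that did not overlap were higher and 143 lower. The percentages are therefore no like background for the members, and no excess is read from them. Shares of one total are tied to each other: a lower share of mt-Co1, which holds most of the counts, raises the others. By complex, the 5 complex I members took 19.5% ± 0.998 of these counts in Normal, 19.2% ± 0.384 in Model and 21.1% ± 1.59 in treated libraries (SD, n = 3). The 3 complex IV members took 70.1% ± 1.47, 70.5% ± 0.614 and 68.1% ± 1.84 (SD, n = 3), in that order. Treated 3 stood outside the other 8 libraries in both, at 22.9% for complex I and 66.0% for complex IV. For mt-Nd6, the message of the other strand, the share was 1.02%, 1.02% and 1.26% in Normal, 1.22%, 1.23% and 1.29% in Model and 1.12%, 1.34% and 1.44% in treated libraries, and all groups overlapped.

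**Figure D5:**
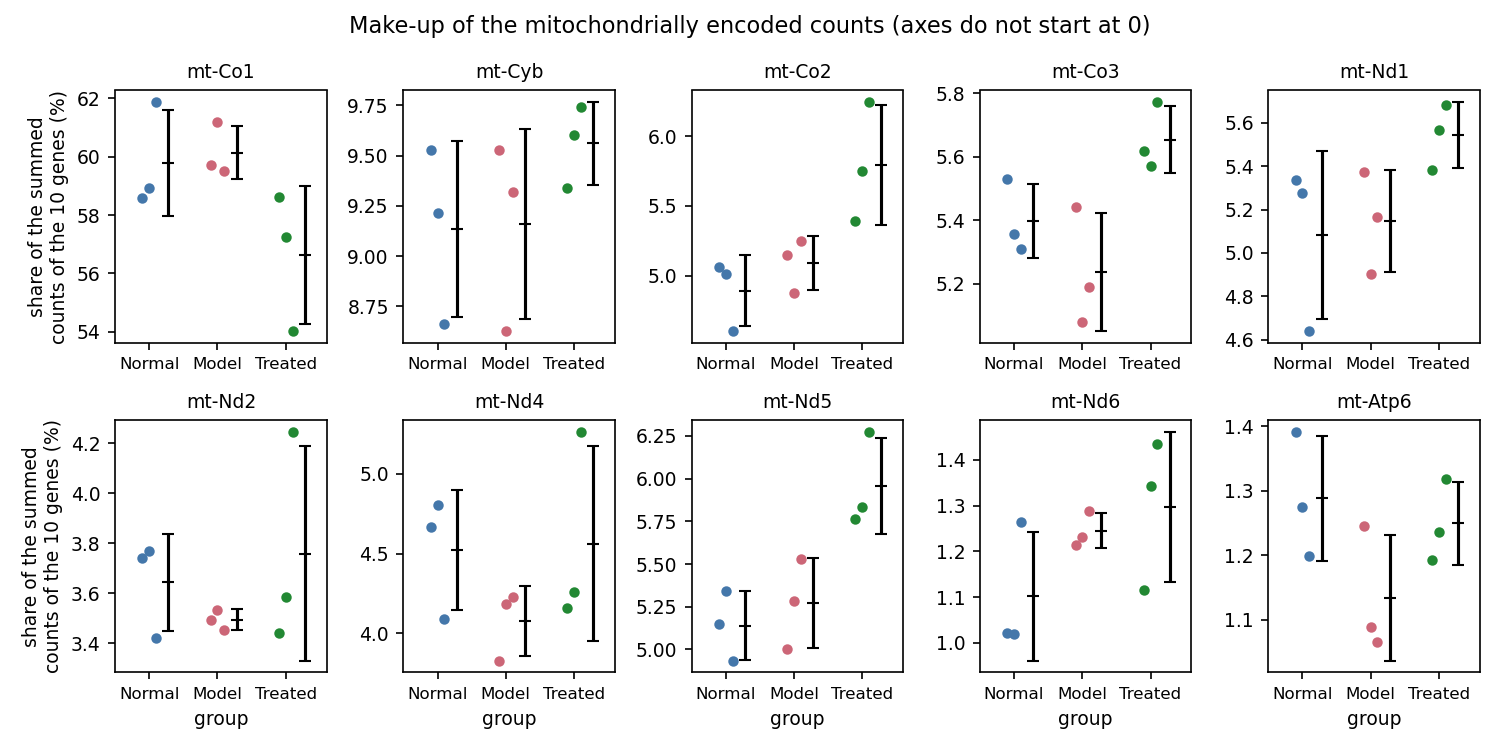
Counts of each member as a percent of the summed counts of the 10 members, by group (points: libraries, black bars: mean and SD, n = 3), on axes that do not start at 0. The treated libraries lie above the other 6 for mt-Co2 (5.39% to 6.25%), mt-Nd5 (5.76% to 6.27%), mt-Nd1 (5.38% to 5.68%) and mt-Co3 (5.57% to 5.77%).

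Over the 9 libraries the members followed the summed level of the others to unlike degrees. Since mt-Co1 held 54.0% to 61.9% of the members' counts, that sum is mostly mt-Co1 for each other member. Likeness between single pairs of members was not computed. Pearson's r of a member's log2 CPM with the summed level of the other 9 ran from 0.476 for mt-Co1 and 0.481 for mt-Co2 to 0.860 for mt-Co3. Of the 12933 tested genes that are not members, the 2 whose log2 CPM was most like the summed level of the 10 were ENSRNOG00000007202, with r of 0.956 and Spearman's rho of 0.933, and ENSRNOG00000022999, with 0.956 and 0.967. The 2 that ran most against it were ENSRNOG00000027300, with r of -0.975 and rho of -0.983, and ENSRNOG00000050946, with -0.947 and -0.933. These 4 are the ends of a ranking of all genes over 9 libraries that share depth and scaling with the members, and no test was made on them. By r with the same summed level mt-Co1 ranked 10 among all tested genes, while mt-Co2 ranked 1155 and mt-Nd6 1189. The ranking thus weighs mt-Co1 most and does not describe likeness to each member. The level of ENSRNOG00000007202 was 238 CPM in Model 2 and 166 in Model 1, and that of ENSRNOG00000027300 was 20.3 and 31.6 CPM. None of the 4 passed the threshold in any comparison.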

How the data were processed

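RNA of 9 libraries was sequenced as strand-specific total RNA, per the labels' protocols; the submitters' processing notes name CASAVA 1.8 and the genome build mRatBN7.2. Which aligner, counter and annotation release were used is not given in the sources used here. The authors deposited whole-number counts per gene and FPKM values, per the file headers. FPKM over counts gave 1 length per gene, to within 0.000831% for 8768 genes with at least 100 counts in each library. The lncRNA table was not used here.

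Counts were tested with edgeR 4.0.16 (R 4.3.3), after scaling by TMM and a filterByExpr minimum count of 10 (12943 genes kept, 99.9% of counts), with robust estimateDisp and glmQLFit, and glmQLFTest on 1 fit of all 9 libraries with group as the only term. Calls used a Benjamini-Hochberg adjusted p below 0.05 over all genes tested, with no fold minimum. On simulated data with known changes the same code was tested beforehand. Replicate libraries differed by more than sampling noise (chi-square per degree of freedom 4.98 to 16.1). The highest values were those of Model 2, at 16.1 with Model 1 and 12.5 with Model 3. Model 1 with Model 3 had the lowest. Log2 CPM for the ranking used a prior count of 2. Alternatives were DESeq2 1.42.0, other scalings and filters, fits on 2 groups, a replicate block, a fold minimum and leaving out each library. Leaving out Model 2 and treated 3 together was chosen after seeing the data. The members and lists were chosen with earlier results of these data known. All members are named, with the 2 genes most and least like their summed level. The reference gene table (GRCr8, 47357 genes) holds 0 Ensembl identifiers, so 0 of the 10 members matched, and 7 pathway lists (113 symbols) and 5 marker lists (23 symbols) were not analysed here.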

Additional observations from a re-analysis of the deposited data

How the results depend on the processing

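The number of members called stayed 0 in each of the 3 comparisons under all 19 alternatives (scalings, filters, tools, thresholds and left-out libraries) and without Model 2 and treated 3 together. The lowest edgeR adjusted p of any member over those alternatives was 0.573 for Model against Normal (mt-Atp6, without Normal 3), 0.209 for treated against Model (mt-Nd5, without Model 2) and 0.105 for treated against Normal (mt-Co1, without Model 2). A further fit left out both Model 2 and treated 3, a choice made after seeing the data. Its edgeR adjusted p of treated against Normal was 0.0750 for mt-Nd2, 0.0837 for mt-Nd4, 0.0952 for mt-Co1 and 0.131 for mt-Atp6. In this comparison 223 of all 13089 genes then passed. These 2 libraries held the highest level of all 10 members in their groups. Leaving them out therefore lowers the members' group means by selection, and nothing is read from these p-values. Scaling changed no sign. The log2 fold change of mt-Co2 between Model and Normal, -0.0013, turned to 0.013 with no filter and to 0.0016 in a fit on the 2 groups, and the cause was not tested.

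Leaving out libraries (singly, or Model 2 with treated 3) changed further signs. For Model against Normal the log2 fold change ranged from -0.10 to 0.00066 for mt-Nd1, from -0.15 to 0.018 for mt-Co1, from -0.061 to 0.049 for mt-Co2 and from -0.11 to 0.074 for mt-Nd5. For treated against Model it ranged from -0.019 to 0.14 for mt-Nd1, from -0.11 to 0.18 for mt-Nd2, from -0.0076 to 0.18 for mt-Atp6, from -0.013 to 0.15 for mt-Co3, from -0.071 to 0.24 for mt-Nd4, from -0.14 to 0.13 for mt-Nd6 and from -0.059 to 0.095 for mt-Cyb. For treated against Normal it ranged from -0.063 to 0.10 for mt-Nd1, from -0.22 to 0.059 for mt-Nd2, from -0.12 to 0.051 for mt-Co3, from -0.27 to 0.043 for mt-Nd4, from -0.022 to 0.27 for mt-Nd6 and from -0.12 to 0.038 for mt-Cyb. Leaving out 1 library, the log2 ratio of summed shares ranged from -0.15 to -0.0011 for Model against Normal, from -0.10 to 0.071 for treated against Model and from -0.16 to -0.018 for treated against Normal. With FPKM it was -0.042, 0.0046 and -0.038, in that order.

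The labels number libraries 1 to 3 in each group, but do not say that a number marks a shared culture. Correlations of same-numbered deviations from the group means were -0.01 to 0.28, above 0.1 in 2 of 9 pairs, and 7 of 18 checks put a library nearest its own number, so the numbers were not taken as pairs. With the replicate block 0 members were called in each comparison. The block took the count over all genes to 1 for Model against Normal, from 119 to 47 for treated against Model and from 346 to 302 for treated against Normal. DESeq2 called 194 genes between treated and Model, and the fold minimum of 1.2 left 3 there and 31 of 346 between treated and Normal. Leaving out 1 library gave 0 to 17, 8 to 215 and 94 to 669 genes in the 3 comparisons, in that order.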
